A study of Homo sapiens with 6 samples.

Results

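Protein kinase CK2 and the DNA topoisomerases are enzymes that ellagic acid has been reported to inhibit in biochemical assays. The transcripts of 6 genes were followed, picked by symbol from the 52408 genes of the count table: the CK2 catalytic subunits CSNK2A1 (ENSG00000101266) and CSNK2A2 (ENSG00000070770), its regulatory subunit CSNK2B (ENSG00000204435), and the topoisomerases TOP1 (ENSG00000198900), TOP2A (ENSG00000131747) and TOP2B (ENSG00000077097). RNA came from HepG2, a human liver cancer cell line. Cells of 3 libraries received ellagic acid (EA), a plant polyphenol, at 50 µM in DMSO, and those of 3 other libraries the same volume of DMSO alone, both over 24 h. Nothing in the labels tells whether the replicates were independent cultures, and the p-values therefore reflect the spread among these libraries alone, possibly a technical one. Transcript levels say nothing of enzyme activity, and whether EA acted on these enzymes in the cells was not measured.

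CK2 phosphorylates serine and threonine residues flanked by acidic residues and is active in nearly all cells without a second messenger. Its holoenzyme joins a pair of catalytic subunits, α (CSNK2A1) or α′ (CSNK2A2), to a pair of regulatory β subunits (CSNK2B), which steer the choice of substrate. Topoisomerases relieve the twist that builds up in DNA during transcription and replication: TOP1 nicks a single strand, while the type II enzymes TOP2A and TOP2B pass a double helix through a cut in another. TOP2A is made in dividing cells and untangles sister chromatids at mitosis, whereas TOP2B is also made in cells that do not divide. Drugs such as camptothecin (TOP1) and etoposide (type II enzymes) trap topoisomerases on cut DNA.

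The regions just before the transcription starts of the topoisomerase genes are printed here because these genes moved in different directions. Each line gives the 250 bases before a start, 5′ to 3′ on the gene's strand, from RefSeq on GRCh38.p14. Capitals mark the letters CCAAT, the core of the site of the factor NF-Y, or TTTGAA, letters of the cell cycle element known as CHR, on either strand.
TOP2A, chr17:40417897-40418146, minus strand: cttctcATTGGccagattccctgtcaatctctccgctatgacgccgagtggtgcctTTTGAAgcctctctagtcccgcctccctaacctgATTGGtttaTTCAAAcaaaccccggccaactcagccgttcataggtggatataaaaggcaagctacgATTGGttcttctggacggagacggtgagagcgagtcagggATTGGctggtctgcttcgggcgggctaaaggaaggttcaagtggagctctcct
TOP2B, first listed start, chr3:25664373-25664622, minus strand: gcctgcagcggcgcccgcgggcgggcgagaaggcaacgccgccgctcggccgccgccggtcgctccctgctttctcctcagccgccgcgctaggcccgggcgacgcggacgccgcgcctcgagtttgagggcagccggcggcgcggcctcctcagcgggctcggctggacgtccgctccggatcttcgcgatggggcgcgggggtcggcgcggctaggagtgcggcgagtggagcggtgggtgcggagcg
TOP2B, second listed start, chr3:25664908-25665157, minus strand: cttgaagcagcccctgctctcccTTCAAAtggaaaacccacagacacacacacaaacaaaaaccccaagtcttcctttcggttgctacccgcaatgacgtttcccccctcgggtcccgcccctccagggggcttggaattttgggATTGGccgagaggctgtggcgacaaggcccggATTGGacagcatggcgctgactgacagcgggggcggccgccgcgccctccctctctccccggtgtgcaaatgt
TOP1, chr20:41028572-41028821, plus strand: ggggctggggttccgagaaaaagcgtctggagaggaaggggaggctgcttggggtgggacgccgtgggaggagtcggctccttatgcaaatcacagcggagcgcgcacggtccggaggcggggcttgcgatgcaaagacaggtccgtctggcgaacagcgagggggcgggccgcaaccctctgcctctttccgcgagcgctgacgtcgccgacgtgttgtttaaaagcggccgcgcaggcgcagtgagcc

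The TOP2A region held CCAAT 4 times, each time on the opposite strand, starting 244, 160, 93 and 53 bases before the transcription start, and TTTGAA 2 times, 194 and 151 bases before it. At least 4 copies of CCAAT were present in 307 of 35116 such regions (0.874%), and at least 1 copy in 11240. At least 2 copies of TTTGAA were present in 1.72% of regions. The first TOP2B region and the TOP1 region held neither, and the second TOP2B region held CCAAT 2 times and TTTGAA 1 time. Of all regions, 9.53% held CCAAT at least 2 times and 13.32% held TTTGAA at least 1 time. The matching regions of CSNK2A1 and CSNK2A2 held neither, and that of CSNK2B held CCAAT 1 time. TTCGAA, another form of CHR, and the E2F letters TTTGGCGC, TTTCGCGC and TTTCCCGC were in 0 of these regions of the 6 genes, against 1.19% and 2.32% of all regions. The searched letters do not overlap each other here. Among 22 genes of G2 and mitosis, 17 had an entry. Of these 17 genes, 15 held CCAAT at least 1 time and 1 held it at least 4 times, counted per gene, against 32.01% and 0.874% of all regions, counted per region. Counted in the same way, TTTGAA was held at least 1 time by 9 of the 17 genes and at least 2 times by 3. Over all regions the shares were 13.32% and 1.72%. The E2F letters were held by 2 of the 17 genes and TTCGAA by 0, against 2.32% and 1.19% of all regions. A match is a run of letters and not a measured binding site.

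Libraries held 15738089 to 19202292 reads with EA and 22987425 to 25973621 with DMSO. A count of 0 in 1 library would allow up to 0.156 to 0.191 CPM (reads scaled to a common library size) with EA and 0.116 to 0.131 with DMSO, taking 3 reads as the floor and covering counting error only. The second principal component of log2 CPM, with 2.49% of the variance, set EA replicate 3 (-33.78) away from EA replicates 1 (18.54) and 2 (14.19). Summed CPM of 8 hepatocyte markers lay between 11629 and 11995 with EA and between 46850 and 49574 with DMSO. APOB, with 3080 CPM on average with EA and 29447 with DMSO, made up much of this difference, and 7 of the 8 markers were lower while APOA1 was higher (log2 fold change 0.35). The sums were 4.56 to 6.34 with EA and 16.4 to 17.5 with DMSO for 5 fibroblast markers, with COL1A2 and DCN at 0 reads throughout. PDGFRB, at 5.41 CPM on average with EA and 16.2 with DMSO, made up nearly all of these sums. It was called lower, as was COL1A1. For 5 leukocyte markers the sums were 3.07 to 3.81 with EA and 3.13 to 3.39 with DMSO, with PTPRC and CD3E at 0 throughout. For 4 endothelial markers they were 3.34 to 4.42 and 2.32 to 2.44. Both of these sums joined genes called in opposite directions, CSF1R (4.02) with CD14 (-2.88) and VWF (1.53) with CDH5 (-1.94), all under 5 CPM.

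Of the 6 genes, 3 were higher and 2 lower with EA, and CSNK2B did not pass the test (adjusted p under 0.05 in edgeR's quasi-likelihood test, Benjamini-Hochberg adjustment over 15648 genes). Most genes in these cells passed: 81.0% of all tested genes were called, 40.5% higher and 40.5% lower. The 5 calls are therefore near the background, and the size and direction of each change say more than the call. In 5 of the 6 genes the EA and DMSO libraries did not overlap in CPM, against 82.9% of all tested genes. Levels are scaled within each library, so a higher or lower value is relative to the other genes.

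**Figure D1:**
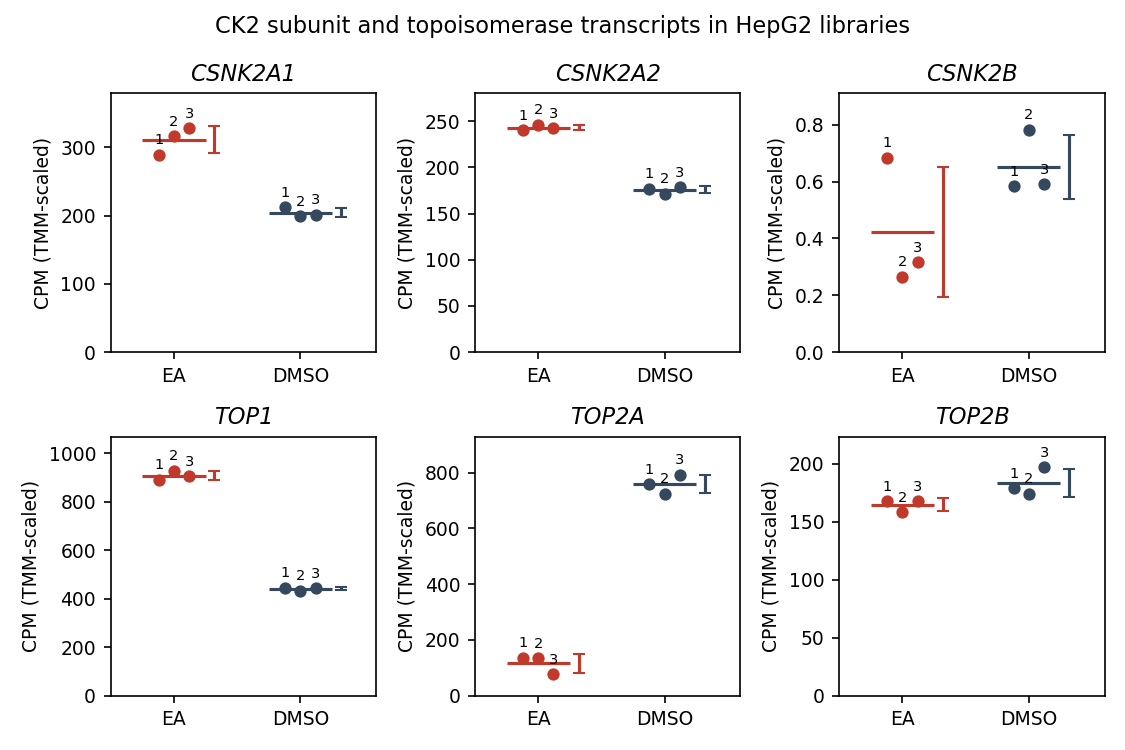
CPM scaled by TMM (y axis, from 0, a scale per panel) of the 6 genes in the EA and DMSO libraries. Points are libraries numbered by replicate, horizontal lines are group means and bars are ± 1 SD (n = 3 per group). TOP1, CSNK2A1 and CSNK2A2 sit higher with EA, TOP2A sits far lower, TOP2B slightly lower, and the groups of CSNK2B overlap.

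TOP2A, the type II topoisomerase of dividing cells, changed most. It had 135.7, 135.2 and 77.5 CPM in EA libraries, against 759.3, 724.8 and 792.2 CPM in DMSO libraries. Every EA library was far under every DMSO library, and EA replicate 3 was the lowest, at 57.2% of the mean of the other two EA libraries. Means were 116 ± 33.5 CPM with EA and 759 ± 33.7 with DMSO (SD, n = 3 each). The log2 fold change was -2.71 (SE 0.24), which is 6.54-fold lower, with an adjusted p of 9.69e-05 in edgeR's test. The change was larger in size than that of 89.1% of tested genes. Without EA replicate 3 the log2 fold change was -2.51 (SE 0.07). In bulk RNA, fewer cells that make a transcript and less of it per cell cannot be told apart.

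TOP1, which relaxes supercoils ahead of and behind RNA polymerase, went the other way. It had 890.3, 927.5 and 904.5 CPM in EA libraries, against 445.8, 433.4 and 444.0 CPM in DMSO libraries. The spread within each group was small next to the distance between the groups. The log2 fold change was 1.04 (SE 0.06), or 2.06-fold higher, with an adjusted p of 4.21e-10 in edgeR's test. Of all tested genes, 56.7% changed less in size. On the opposite strand, exons of PLCG1-AS1 share 2.41% of the bases of its coding transcripts, so without a stated strand setting a small part of its reads cannot be assigned.

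TOP2B, the type II enzyme that cells keep outside division, was slightly lower. It had 167.9, 158.1 and 167.5 CPM in EA libraries, against 178.8, 174.2 and 197.2 CPM in DMSO libraries. The groups did not overlap, but the highest EA library and the lowest DMSO library were close. The log2 fold change was -0.16 (SE 0.07), with an adjusted p of 0.0431 in edgeR's test, and only 9.76% of tested genes changed less in size. The call was lost in 8 of 16 alternatives, among them RLE scaling (adjusted p = 0.11), a filter of 1 CPM in 3 libraries (0.113), and leaving out EA replicate 2 (0.108) or DMSO replicate 3 (0.114). Over all 16 alternatives the adjusted p ran from 0.000476 to 0.12.

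The balance between the topoisomerases shifted accordingly, as ratios of reads within a library show without any scaling between libraries. TOP2A had 0.808, 0.855 and 0.463 reads for each TOP2B read in EA libraries, against 4.25, 4.16 and 4.02 in DMSO libraries. The mean log2 ratio differed by -2.60 between EA and DMSO. For TOP1 the reads for each TOP2B read numbered 5.30, 5.87 and 5.40 with EA, against 2.49, 2.49 and 2.25 with DMSO, a difference in mean log2 ratio of 1.20. Both ratios separated the groups fully, and an exact two-sided permutation test gave p = 0.1, the smallest that 3 libraries against 3 allow (0.1 after adjustment over the 4 ratios computed).

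Per length, the order of the topoisomerases differed between the groups. With EA, CPM per kilobase of coding-transcript exon averaged 243 ± 5.02 for TOP1, 30.0 ± 1.01 for TOP2B and 20.2 ± 5.81 for TOP2A (SD, n = 3). With DMSO it averaged 132 ± 5.86 for TOP2A, 118 ± 1.79 for TOP1 and 33.4 ± 2.22 for TOP2B. TOP2A thus made up 43.5%, 44.9% and 30.6% of the summed TOP2A and TOP2B level per kilobase in EA libraries, against 80.2%, 79.9% and 79.3% in DMSO libraries. TOP2A lay under TOP2B in each EA library and over it in each DMSO library. TOP2A and TOP1 cannot be ordered in DMSO, since over all annotated exons they stood at 118 ± 5.24 and 118 ± 1.79.

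**Figure D2:**
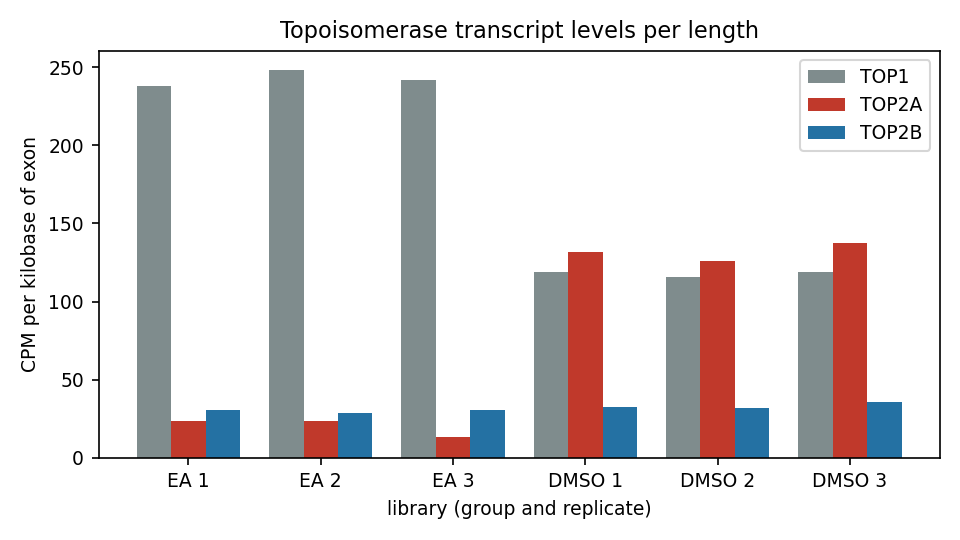
CPM per kilobase of exon in coding transcripts (y axis, from 0) for TOP1, TOP2A and TOP2B in each library (x axis, group and replicate). Bars are single libraries. TOP2A is the lowest bar in every EA library and stands beside TOP1 in every DMSO library, while TOP2B stays between 28.8 and 36.0 throughout.

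Both catalytic subunits of CK2 were modestly higher with EA. CSNK2A1, the α subunit, had 289.4, 316.9 and 328.7 CPM in EA libraries, against 212.2, 199.1 and 201.7 CPM in DMSO libraries. Its log2 fold change was 0.61 (SE 0.07), or 1.53-fold, with an adjusted p of 6.00e-07 in edgeR's test. CSNK2A2, the α′ subunit, had 240.2, 246.2 and 242.4 CPM in EA libraries, against 177.0, 171.5 and 178.8 CPM in DMSO libraries. Its log2 fold change was 0.47 (SE 0.06), or 1.38-fold, with an adjusted p of 3.39e-06. In both genes each EA library was above each DMSO library. Changes of this size were common, since 36.2% and 28.7% of tested genes changed less than CSNK2A1 and CSNK2A2.

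The subunits kept nearly the same proportion to each other. CSNK2A2 had 0.830, 0.777 and 0.737 reads for each CSNK2A1 read in EA libraries, against 0.834, 0.861 and 0.886 in DMSO libraries. The difference in mean log2 ratio was -0.14, and the nearest libraries of the groups all but touched (exact two-sided permutation p = 0.1, the smallest possible). Levels of the subunits per length are not compared, because annotated exons of CSNK2A1 cover 15309 bases in coding transcripts and 29523 bases in all.

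A near-identical copy bears on the CSNK2A1 count. CSNK2A3, an intronless gene on chromosome 11, matches the CSNK2A1 coding sequence at 1165 of 1173 bases (99.3%), and the counting may split reads between them. By comparison CSNK2A2 matches CSNK2A1 at 75.6% of aligned coding bases. CSNK2A3 was given 8.73%, 8.06% and 8.39% as many reads as CSNK2A1 in EA libraries, against 6.50%, 6.75% and 7.29% in DMSO libraries. With the reads of both genes summed, an alternative chosen after seeing the data, the log2 fold change of CSNK2A1 was 0.63 (SE 0.07).

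CSNK2B, the regulatory subunit, was almost uncounted. It had 11, 5 and 6 reads in EA libraries, against 15, 18 and 15 reads in DMSO libraries, or 0.422 ± 0.229 CPM with EA and 0.652 ± 0.113 with DMSO (SD, n = 3 each). The groups overlapped, because EA replicate 1 was above 2 DMSO libraries in CPM. The log2 fold change was -0.65 (SE 0.41, adjusted p = 0.149 in edgeR's test). The summed counts of 22 and 48 reads gave a scaled ratio of 0.630, with a 95% exact counting interval of 0.362 to 1.06. Without EA replicate 1 the log2 fold change was -1.15 and the gene was called (adjusted p = 0.0326; 0.0326 to 0.417 over its 14 alternatives). Its ratio to CSNK2A1 reads, with 0.5 added to each count, gave a difference in mean log2 ratio of -1.29 (exact permutation p = 0.1, the smallest possible).

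This count need not mean a low level of the β subunit. In GENCODE 29, 48.1% of the bases of CSNK2B coding transcripts lie in exons of another gene on the same strand, and 64.98% counting both strands. The partners are the overlapping gene AL662899.2 and, on the opposite strand, GPANK1. AL662899.2 itself had 10 reads over the EA libraries and 32 over the DMSO libraries, while the neighbours GPANK1 and BAG6 had 1359 and 24151 reads with EA and 1676 and 33450 with DMSO. The neighbours PRRC2A and CLIC1 had 42342 and 26671 reads with EA, and 30569 and 59463 with DMSO. Another neighbour, LY6G5B, was also thinly counted, with 41 reads with EA and 140 with DMSO. CSNK2B, at 48.1%, belongs to the protein-coding genes with 20% to 50% of coding-transcript bases shared on their own strand. A mean under 1 CPM was found in 47.6% of 475 such genes and in 37.6% of 16617 genes with none shared. Among 382 genes with over 80% shared it was found in 79.1%. The sources used here do not give how reads falling in more than 1 gene were treated, and the part of this in the low count was not tested.

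**Figure D3:**
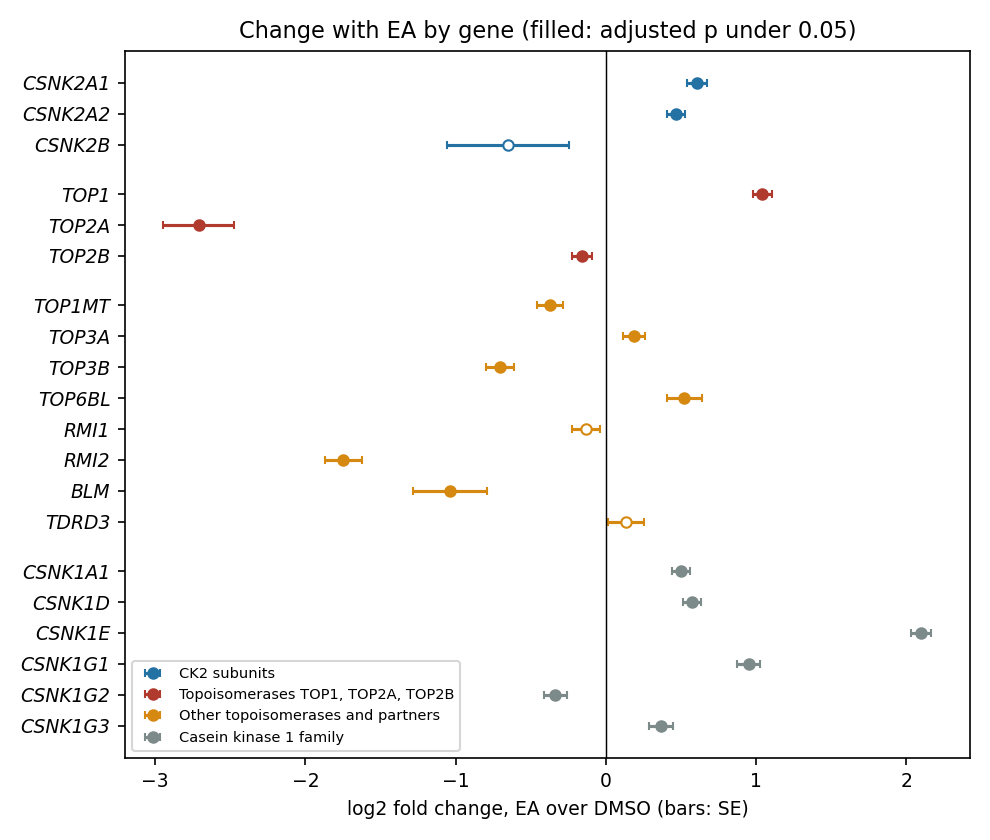
Log2 fold change of EA over DMSO (x axis) with SE bars for each tested CK2 subunit, topoisomerase, topoisomerase partner and casein kinase 1 gene (y axis). Filled points had an adjusted p under 0.05. TOP2A at -2.71 and CSNK1E at 2.10 mark the ends, and TOP2B at -0.16 lies close to 0.

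The other topoisomerase genes moved less than TOP2A. Of 9 genes of this kind and their partners, 8 were tested, with 2 higher, 4 lower and 2 not called, and a median log2 fold change of -0.25, against 0.00 over all tested genes. Calls in 6 of 8 genes are not above the 81.0% called over all tested genes. TOP3B, a type IA enzyme that also acts on RNA, had 18.4 ± 1.34 CPM with EA and 29.9 ± 1.53 with DMSO (log2 fold change -0.71, SE 0.09). The mitochondrial enzyme TOP1MT fell by 0.37 on the log2 scale, and TOP3A was called at 0.19, a call lost in 9 of 16 alternatives. TOP6BL, related to the archaeal topoisomerase VI and listed under its older symbol C11orf80, rose by a log2 fold change of 0.52. The helicase BLM (-1.04) and RMI2 (-1.75), which act with TOP3A to dissolve linked DNA, were lower. BLM had 4.65 CPM in EA replicate 3, against 9.27 and 10.3 in EA replicates 1 and 2. With libraries left out in turn its log2 fold change ran over -1.27 to -0.78. RMI1 stood at -0.13 and TDRD3, the partner of TOP3B, at 0.14, both not called. SPO11, which cuts DNA in meiosis, was under the filter. The drug pump genes ABCG2 and ABCC1, which export some topoisomerase poisons, had log2 fold changes of -1.63 and 0.89. ABCB1 was called at -0.16 (adjusted p = 0.0492 in edgeR's test), a call lost in 9 of 16 alternatives, and CES2, which activates irinotecan, stood at 0.06, not called. SLFN11, linked to sensitivity to such drugs, was listed at 0 reads in all 6 libraries.

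Genes that work with the type II enzymes on chromosomes split. Condensin, which shapes mitotic chromosomes together with TOP2A, was lower with EA in all 8 subunits (median log2 fold change -1.15). All 8 were called lower, against 40.5% of all tested genes. The largest falls were those of NCAPG (-1.89), NCAPG2 (-1.76) and NCAPH (-1.53), followed by NCAPD3 (-1.19), NCAPH2 (-1.10), NCAPD2 (-1.02), SMC4 (-0.98) and SMC2 (-0.78). EA replicate 3 was the lowest library here too, with summed condensin CPM of 294.1 against 394.4 and 393.0 in EA replicates 1 and 2, and 822.1 to 834.9 in DMSO libraries. Without EA replicate 3 all 8 were still called lower, NCAPG at -1.67, NCAPG2 at -1.62 and NCAPH at -1.29. By contrast 7 of 8 genes of cohesin and CTCF, beside which TOP2B sits at loop anchors, were higher. The other 1 was not called, and the median was 0.63. Among all tested genes 40.5% were called higher, and 81.0% in either direction. NIPBL (1.46), STAG1 (1.02), STAG2 (0.94), RAD21 (0.65), SMC3 (0.62), WAPL (0.31) and CTCF (0.30) rose, and SMC1A stood at -0.11. TOP2B itself stood at -0.16.

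TOP2A fell in company with other genes of G2 and mitosis. With EA, expression was lower in all 22 such genes, by a median log2 fold change of -2.03. Their range was -3.82 to -0.84, within which TOP2A lay. All 22 genes were called lower, against 40.5% of all tested genes. Those with the smallest p were CCNB1 (-3.82), AURKA (-2.29), PLK1 (-1.65) and BUB1B (-3.44). EA replicate 3 was low in these genes too. Its log2 level, with 0.5 CPM added, minus the mean of EA replicates 1 and 2 was -0.80 for TOP2A, and 21 of the 22 genes were below 0 on the same measure (median -0.73). Over all tested genes the median was 0.01. The part of this difference between EA libraries in the spread of TOP2A was not tested. By the smallest distance between centred log2 profiles over the 6 libraries, among 12637 genes with a symbol and a mean of at least 1 CPM, the genes nearest to TOP2A were WDHD1, HELLS and PBK (distances 0.129, 0.208 and 0.233). These 3 genes are not among the 22 genes of G2 and mitosis listed here. The genes nearest to TOP1 were RALB, USP32 and EXD2 (0.0444 to 0.0658), and those nearest to TOP2B were ABHD18, QSER1 and TMEM2 (0.0493 to 0.0767). For CSNK2A1 they were C4orf3, DIS3 and C6orf106 (0.0192 for the nearest), for CSNK2A2 MARCH6, PIK3C3 and SMAD2 (0.0522 to 0.0628), and for CSNK2B C19orf24, ANKDD1A and RPL24P8 (0.0558 to 0.219). All these profiles had 0.5 CPM added. CSNK2B averaged only 0.422 CPM with EA and 0.652 with DMSO, so the added value flattened its profile. Its 3 neighbours had log2 fold changes of -0.44, -0.38 and -0.50, against -0.65 for CSNK2B, and say little about it.

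Genes that repair DNA bound by a trapped topoisomerase went both ways. Of 17, 5 rose, 9 fell and 3 were not called, with a median log2 fold change of -0.55. Calls in 14 of 17 genes are near the 81.0% of all tested genes. TDP1, which clears TOP1 from DNA ends, stood at 0.04 (SE 0.10, not called), and TDP2, which clears type II enzymes, at 0.32 (SE 0.11, adjusted p = 0.0176 in edgeR's test). These 2 genes were chosen with their values in view. The end-joining genes PRKDC (-1.21) and XRCC6 (-1.31) and the break sensor RAD50 (-1.11) were lower, while XRCC4, which stabilises the end-joining ligase, rose to 19.5 ± 1.92 CPM with EA, against 6.29 ± 0.329 CPM with DMSO.

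Substrates and partners of CK2 also went both ways. Of 20, 6 rose, 11 fell and 3 were not called, with a median log2 fold change of -0.48. Calls in 17 of 20 genes are near the 81.0% of all tested genes, of which 40.5% were higher and 40.5% lower. The histone deacetylase HDAC2 (-1.52), the nucleolar protein NCL (-1.24), the kinase chaperone partner TELO2 (-1.34) and the survival kinase AKT1 (-1.16) were lower. XRCC4, which also belongs to the repair genes, was the largest rise at 1.63. In the casein kinase 1 family, which shares a historical name with CK2 but not its subunits, 5 of 6 genes were higher and 1 lower, with a median of 0.54. Over all tested genes 81.0% were called, 40.5% higher and 40.5% lower. CSNK1E, a kinase of the circadian clock, had 352 ± 6.57 CPM with EA and 82.0 ± 4.92 with DMSO, a log2 fold change of 2.10 (SE 0.07). CSNK1G1 (0.95), CSNK1D (0.57), CSNK1A1 (0.50) and CSNK1G3 (0.37) rose, and CSNK1G2 fell by 0.34 on the log2 scale.

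**Figure D4:**
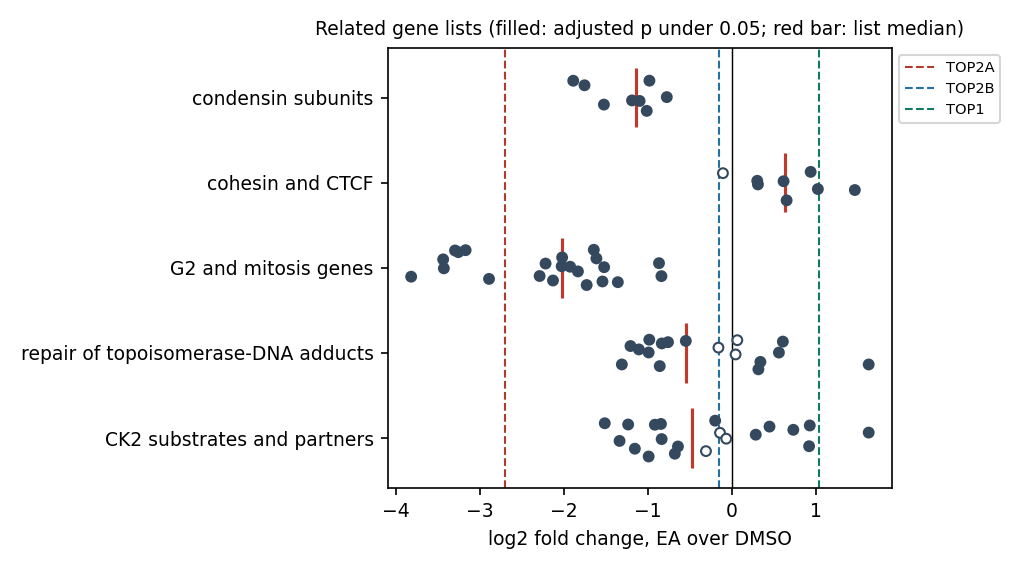
Log2 fold change of EA over DMSO (x axis) of each tested gene in 5 lists of related genes (y axis), spread vertically for legibility. Filled points had an adjusted p under 0.05, red bars are list medians and dashed lines mark TOP2A, TOP2B and TOP1. Condensin and G2 and mitosis genes lie left of 0, cohesin genes mostly right of it, and the CK2 and repair lists span both sides.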

How the data were processed

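The authors deposited raw counts, whole reads per gene for 52408 genes, from 3 EA and 3 DMSO libraries of HepG2 cells. The submitters' processing notes name HTSeq 0.6.1, HISAT, cutadapt 1.9.1, bcl2fastq 2.17.1.14 and hg19. Annotation release, strand setting and filters: not given in the sources used here. Columns were matched to samples by name. Genes passing filterByExpr (15648) were tested with edgeR 4.0.16 in R 4.3.3 (TMM scaling, robust quasi-likelihood, Benjamini-Hochberg). Levels are CPM after TMM scaling. Each SE is the log2 fold change divided by the root of its F statistic. Reads carry no molecular identifiers and are not independent molecules, so floors and intervals cover counting error only.

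Exon lengths and shared exons came from GENCODE 29 (GRCh38, another build than hg19, so used without coordinates), which matched 52306 of the gene identifiers. Promoter letters came from RefSeq on GRCh38.p14. Counts were also simulated for this comparison, with 15242 genes tested. Calls were made for 32 of 50 genes simulated at 1.5-fold, 39 of 50 at 2-fold, 49 of 50 at 4-fold and all 50 at 8-fold. Another 18 calls were false. Only 50 genes were changed at each size, whereas 12680 of 15648 genes were called in the data. The simulated shares of calls and false calls therefore do not carry over to these data.

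The members and the 12 context lists were chosen with earlier results of these data known. Named were all members, all tested genes of the gene-family and pathway lists of 9 or fewer, and in longer lists the 4 called genes with the smallest p plus the largest called change against the list median; 3 genes with the nearest profile were named per member. The 4 cell type marker lists are given by their sums, and the markers named from them were picked with their values seen. The chromosomal neighbours of CSNK2B, and CSNK2A3, were named outside these rules. Alternatives were DESeq2 1.42.0, limma-voom (limma 3.58.1), other scalings and filters, thinning, a stricter threshold, a replicate block and each library left out.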

Additional observations from a re-analysis of the deposited data

How the results depend on the processing

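CSNK2A1, CSNK2A2, TOP1 and TOP2A kept their direction and their call in every alternative run, including each library left out, thinning, other scalings, limma-voom and DESeq2. Their log2 fold changes ran over 0.48 to 0.65, 0.34 to 0.51, 0.91 to 1.08 and -2.85 to -2.51. TOP2B kept its direction but lost its call at an adjusted p of 0.01 (-0.16), with RLE (-0.12), upper-quartile (-0.15) and library-size scaling (-0.15), with 1 CPM in 3 libraries (-0.12) and after thinning (-0.12); the cause was not tested. With libraries left out in turn it ranged over -0.21 to -0.14 and CSNK2B over -1.15 to -0.41. CSNK2B could not be fitted with the filter of 1 CPM in 3 libraries or after thinning to equal depth, where it had too few reads. With no filter the median log2 fold change of the same genes shifted by -0.13, and TOP2B stood at -0.29.

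Counts of called genes ran over 11592 to 14923, but the numbers tested differed. At an adjusted p of 0.01, 11592 of 15648 genes were called. With no filter it was 14923 of 32015, and with DESeq2 13177 of 32015. The share of 81.0% called thus belongs to the main filter, and a wider set of genes gave a lower share. The log2 ratios kept their sign in all alternatives. Over all settings 8 of 8 condensin genes and 21 to 22 of 22 genes of G2 and mitosis were called lower, and 6 to 7 of 8 genes of cohesin and CTCF higher; in cohesin and CTCF 1 gene was called lower with no filter and without EA replicate 3.

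Same-numbered libraries did not deviate together (correlations -0.08, 0.03 and -0.02), so the numbers are not taken as pairs. With a replicate block 12537 genes were called and no call of the 6 genes changed (TOP2A -2.75, TOP2B -0.16 with an adjusted p of 0.0472 in edgeR's test). The 3 paired differences of the log2 ratio of TOP2A to TOP2B averaged -2.60 (exact sign-flip p = 0.25, the smallest possible).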
